A study of Xenopus laevis with 10 samples.

Results

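Fed and unfed Xenopus laevis tadpoles were compared at 13 days post-fertilization (dpf) by RNA sequencing of the intestine. The comparison took the libraries whose titles and column names give 13 dpf. These were 4 of the 10 libraries in the series, 1 fed and 1 unfed in each of 2 experiments. The other 6 libraries come from 10 dpf in both experiments and 16 dpf in experiment 2. By the labels, 20 to 26 intestinal tubes were pooled per stage from tadpoles raised at 19 °C, no strain or genotype is given, and the fed and unfed groups differ only in feeding. The labels do not say when feeding began, what the food was, or whether the experiments used separate clutches. The replicate spread is therefore the spread between pooled libraries. The protocol text names 10 and 16 dpf but not 13 dpf. In experiment 1 the stage field disagrees with the titles, giving 10 dpf for the fed library titled 13 dpf and 13 dpf for the unfed library titled 10 dpf. Ages below follow the titles. By the stage field, the fed group of 13 dpf would hold only the library of experiment 2. The unfed group of 13 dpf would also hold the library of experiment 1 titled 10 dpf.

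The tadpole gut takes over nutrition when yolk runs out. Its epithelium absorbs sugars, amino acids, phosphate and lipids at the brush border, repackages fat and sterols, and renews itself by cell division. In vertebrates generally, cells supplied with nutrients signal through insulin and TOR towards protein synthesis and growth, while in unfed cells FoxO factors turn on genes for fuel sparing, autophagy and cell cycle arrest. The sterol factor SREBP2 switches on cholesterol synthesis when cell sterol is low. Xenopus laevis is an allotetraploid, so that many genes exist as an L and an S copy on separate chromosomes.

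Counts per gene were the largest transcript count of the gene, and totals over genes ranged from 7679086 to 8996102 in the 4 libraries of 13 dpf. Levels are given as CPM, the count of a gene scaled to a common library total. Across genes, log2 CPM correlated at 0.936 between the fed libraries and at 0.95 between the unfed libraries, and at 0.860 to 0.896 between fed and unfed libraries. Defining markers of enterocytes summed to 7039 to 14334 CPM in the 4 libraries, and all 5 epidermal markers stayed under 1 CPM in each of them. The fed library of experiment 1, whose stage field disagrees with its title, stood apart in exocrine pancreas and less so in stomach. Its 6 exocrine pancreas markers summed to 56.5 CPM against 629 to 1148 CPM in the other libraries, although prss1.L was at 0 in every library. Its 6 stomach markers, of which pgc.S was at 0 in every library, summed to 2246 CPM against 3270 to 5409. The stomach marker gkn1.S did not follow this sum. It had 31.3 and 55 CPM in the fed libraries of experiments 1 and 2, against 7.87 and 0.906 CPM in the unfed libraries. In the fed library of experiment 2 the 9 red cell markers summed to 6204 CPM, against 1312 to 1437 elsewhere, and the 8 smooth muscle markers to 16803 CPM, against 6583 to 7394. Bulk RNA cannot tell fewer cells of a type apart from less RNA per cell.

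**Figure D1:**
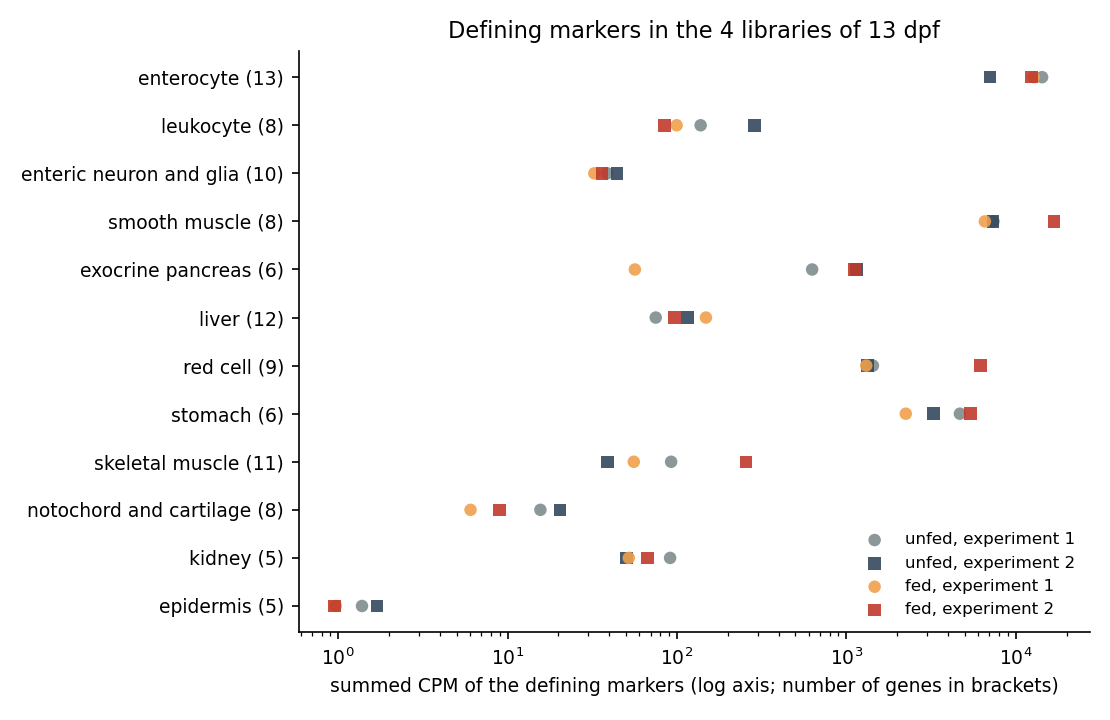
Summed CPM (log axis) of the defining markers of 12 tissues and cell types in the 4 libraries of 13 dpf, with the number of marker genes in brackets. The fed library of experiment 1 lies far to the left for exocrine pancreas (56.5 CPM), and the fed library of experiment 2 far to the right for red cells (6204 CPM) and smooth muscle (16803 CPM).

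Of 23821 genes tested, 3969 were higher in fed intestine (16.7%) and 3424 lower (14.4%), together 31.0%, at a Benjamini-Hochberg adjusted p under 0.05 in edgeR's quasi-likelihood test. These genes are referred to as called. Their shares of all genes, 16.7% higher and 14.4% lower, are the background for the counts of each gene list below. The higher genes included 2536 past a 2-fold difference and 143 past 8-fold, and the lower genes 2453 and 200. The log2 ratio had the same sign in both experiments for 99.7% of called genes and for 74.7% of all genes, and over all genes it correlated at 0.672 between experiments. The call used these same libraries and favours genes that moved alike in both experiments. The 99.7% is therefore no separate check of their agreement. The median log2 fold change of all genes was -0.03, and the median of its absolute value 0.61. The counts rested on both unfed libraries: they were 1642 higher and 1636 lower without the unfed library of experiment 1, and 1411 and 1304 without that of experiment 2. With ages taken from the stage field they were 1692 and 1633. That setting ended the call of 88 of the 247 called genes that the naming rule picked, among the ones described below c3.L, cdca7.S, cdkn2b.L, cyba.S, ddx21.L, gck.L, nos2.L, noxo1.S, nr0b2.L, nr0b2.S, slc7a8.S, slc7a9.L, sox9.L and tyrobp.L, with adjusted p from 0.0523 to 0.148. That setting changed the group sizes along with the ages, and the part of each was not tested. It also ended the calls of arg1.L, csf3.L, fgf19.L, hamp2.L and mmp8.L. These are described below. They are among the 15 lowest log2 fold changes of called genes with a symbol, a mean of at least 1 CPM and the same sign in both experiments. The same comparison at 10 dpf called 2739 genes higher (11.5%) and 2145 lower (9%).

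**Figure D2:**
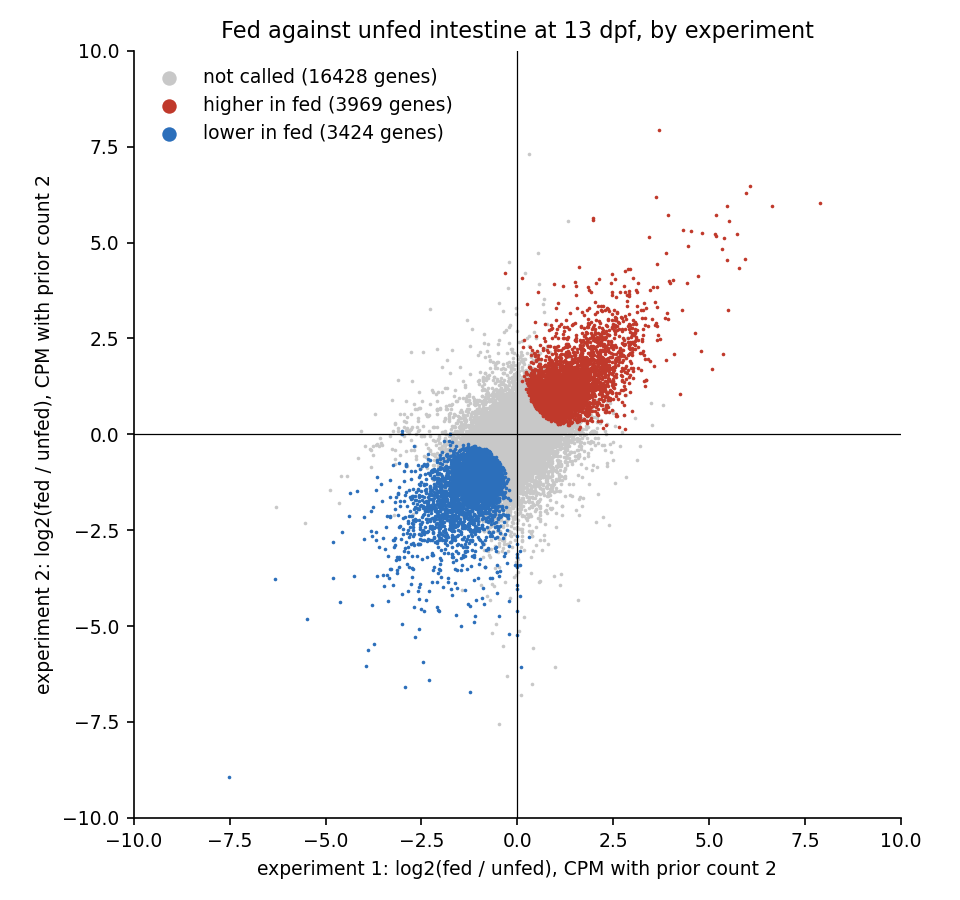
Log2 ratio of fed to unfed CPM at 13 dpf for each gene, experiment 1 on the x axis and experiment 2 on the y axis, with called genes in colour. Nearly all called genes lie in the upper right or lower left quadrant (99.7% have the same sign, which the call itself favours). The cloud of 16428 genes that were not called is centred near 0.

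Genes of cholesterol synthesis rose almost throughout. Of 43 members tested, 37 rose and 1 fell, where 16.7% of all genes rose and 14.4% fell, with a median log2 fold change of 2.78, and 32 to 37 rose when any 1 of the 4 libraries was left out. Their summed level was 704 and 673 CPM in the unfed libraries of experiments 1 and 2, against 3724 and 6061 CPM in the fed libraries. Squalene monooxygenase, the first oxygen-dependent step of sterol synthesis, is encoded by sqle.L and sqle.S. The unfed libraries had 0.532 and 0.453 CPM of sqle.L, and the fed libraries 34.97 and 32.4 CPM. The fed values lay close together and far above both unfed values, with a log2 fold change of 6.06 ± 0.36 (SE) and an adjusted p of 1.31e-05. For sqle.S the change was 5.69 ± 0.35 (adjusted p = 1.5e-05). Methylsterol monooxygenase, which strips methyl groups from the sterol ring, behaved alike in both copies: msmo1.L went from 4.47 and 6.57 CPM to 293.5 and 531 CPM, a change of 6.19 ± 0.49, and msmo1.S changed by 6.34 ± 0.49. Lanosterol demethylase gave 5.92 ± 0.52 for cyp51a1.S and 5.34 ± 0.36 for cyp51a1.L. HMG-CoA synthase, at the entry of the pathway, stood at 7.55 and 9.39 CPM for hmgcs1.S in unfed intestine and at 279.8 and 509 CPM in fed intestine, a change of 5.49 ± 0.44, and its L copy changed by 4.95 ± 0.39. The member that fell was insig1.S, whose product holds SREBP in the endoplasmic reticulum. Its log2 fold change was -1.09 ± 0.29, while insig1.L rose by 0.98 ± 0.24. Neither insig1 call was firm: insig1.S lost it without the fed or the unfed library of experiment 1 (adjusted p 0.0935 and 0.112), and insig1.L without either unfed library (0.111 and 0.0929). The value of insig1.S was -0.62 without the fed library of experiment 1 and -1.68 without that of experiment 2.

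Fatty acid synthesis and desaturation changed more unevenly. Of 34 members tested, 19 rose and 1 fell, with a median of 1.04, and 9 rose without the unfed library of experiment 2. Desaturases and elongases of polyunsaturated chains were among the members that rose. The fatty acid desaturase gene fads1.L had 0.213 and 0.566 CPM in the unfed libraries and 29.9 and 71.6 CPM in the fed libraries, a change of 6.95 ± 0.35 (adjusted p = 3.47e-06). The second desaturase, fads2.S, had 0.851 and 0.566 CPM in unfed and 13.9 and 195.5 CPM in fed intestine. Its groups did not overlap, but the fed libraries were far apart, and its change of 6.67 ± 1.41 (adjusted p = 0.0267) lost its call without either unfed library (adjusted p 0.143 and 0.246) or without either unfed library of 10 dpf (0.0613 and 0.0654). The elongase genes elovl5.L and elovl5.S rose by 3.28 ± 0.33 and 3.31 ± 0.30. The elongase elovl2.L stood at 5.26 ± 0.97, with a call lost without either unfed library (adjusted p 0.125 and 0.16). Acetoacetyl-CoA synthetase, which feeds ketone bodies into lipid synthesis, rose by 4.28 ± 0.44 in aacs.L. The member that fell, mlxipl.L (-1.54 ± 0.27, adjusted p = 0.00188), encodes the carbohydrate-responsive factor ChREBP, an activator of lipogenic genes in mammals.

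**Figure D3:**
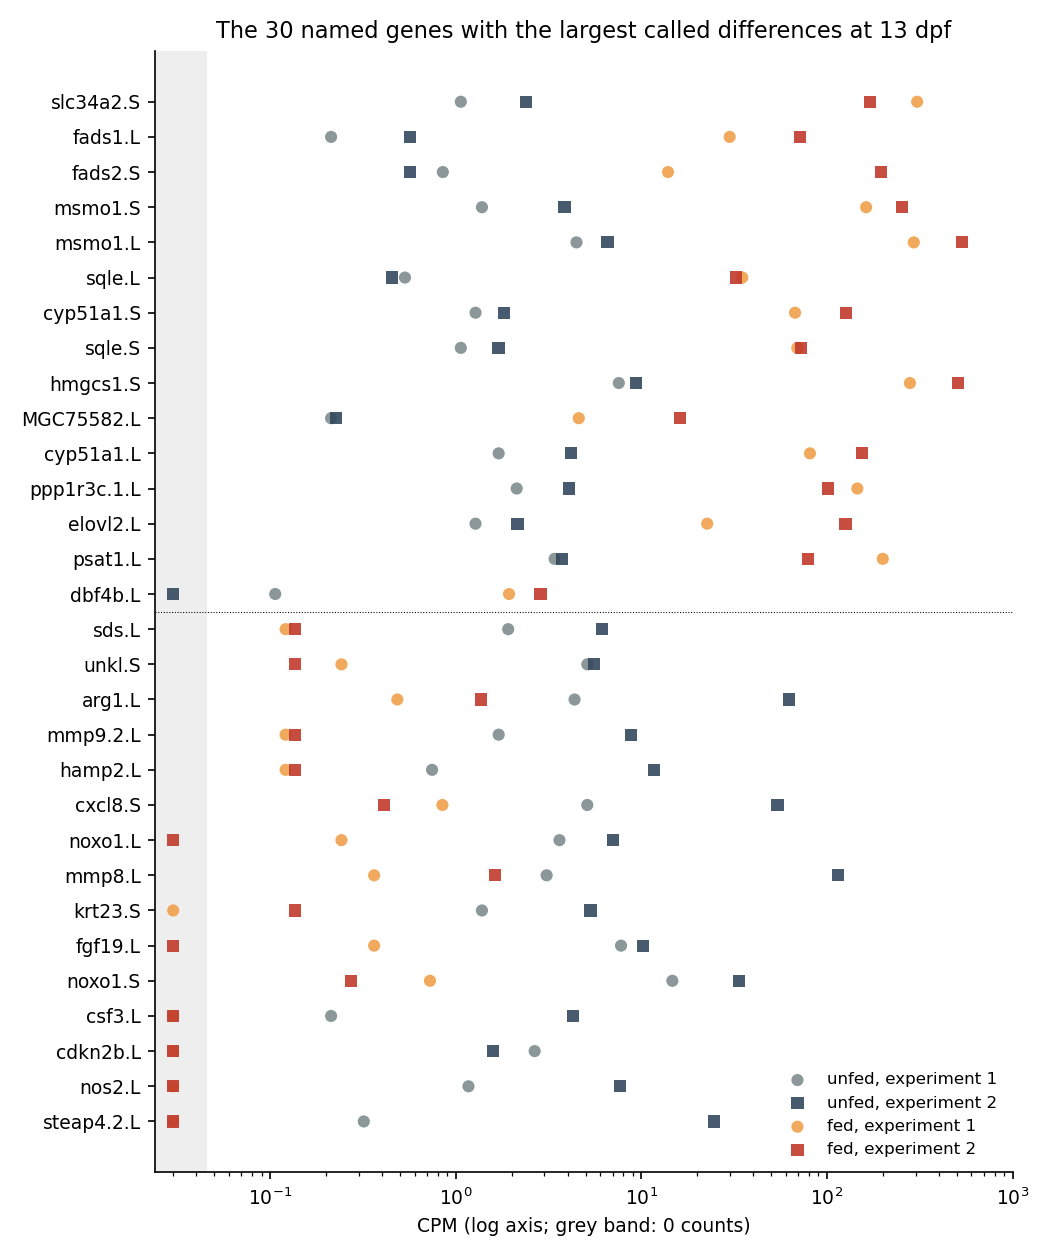
CPM (log axis) in each of the 4 libraries of 13 dpf for the 15 genes with the highest and the 15 with the lowest log2 fold change. They were chosen among called genes with a symbol, a mean of at least 1 CPM and the same sign in both experiments. A point in the grey band is at 0 counts, and where both fed libraries are at 0 their symbols overlie each other. Above the dotted line the fed libraries lie to the right, below it to the left, and for steap4.2.L, mmp8.L, cxcl8.S and arg1.L the unfed libraries of the 2 experiments are themselves far apart.

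Fasting genes moved the other way. Of 30 members of the list of gluconeogenesis and fasting response, 14 fell and 3 rose. The median was -0.46, but -1.39 without the fed library of experiment 2 and -0.62 without that of experiment 1. Without the unfed library of experiment 2 it was -1.05, and without that of experiment 1 it was -0.24. Pyruvate dehydrogenase kinase 4 inhibits pyruvate dehydrogenase. Its gene pdk4.L had 105.6 and 112 CPM in the unfed libraries and 15.4 and 15.1 CPM in the fed libraries. It fell by 2.83 on the log2 scale (SE 0.23, adjusted p = 5.78e-05), and pdk4.S fell by 2.92. For igfbp1.S, a secreted IGF-binding protein that insulin represses in mammals, the unfed libraries had 225 and 317 CPM and the fed libraries 17.5 and 24.4 CPM. The groups were far apart, and the fall was 3.69 ± 0.32 on the log2 scale. The regulator crebrf.S fell by 3.80 ± 0.37. The 3 members that rose, got1.S (1.52 ± 0.28), gpt2.L (1.44 ± 0.43) and ppara.L (0.91 ± 0.29), encode 2 transaminases and the lipid sensor PPARα. Each lost its call without the unfed library of experiment 2, with adjusted p from 0.0502 to 0.15, gpt2.L and ppara.L also without that of experiment 1 (0.14 and 0.244), gpt2.L without the fed library of experiment 2 (0.101), and ppara.L without the fed library of experiment 1, where its value was 0.31 (adjusted p = 0.332).

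Sugar metabolism showed smaller differences than sterol synthesis. In glycolysis 14 of 40 members rose and 3 fell, with a median of 0.64, and 9 rose and 1 fell without the unfed library of experiment 1, and 7 and 0 without that of experiment 2. Glucokinase, a hexokinase of liver and pancreas in mammals, had 28 and 16.3 CPM of gck.L in unfed and 168.5 and 64.1 CPM in fed intestine, a change of 2.33 ± 0.32. Phosphoglycerate mutase pgam1.L rose by 2.0 ± 0.24, and triose phosphate isomerase tpi1.L by 1.59 ± 0.24. In glycogen metabolism 9 of 21 members rose and 2 fell, with a median of 0.84. The scaffold that brings protein phosphatase 1 to glycogen, ppp1r3c.1.L, rose from 2.13 and 4.08 CPM to 145.7 and 102 CPM, a change of 5.33 ± 0.43 (adjusted p = 7.45e-05). A second such scaffold, ppp1r3b.L, changed by 3.88 ± 0.54. Glycogenin, which primes the polymer, and liver-type phosphorylase, which breaks it down, both rose, by 1.21 ± 0.20 for gyg1.S and by 1.55 ± 0.24 for pygl.L. The 2 that fell, agl.S and phkg2.L, are enzymes of glycogen breakdown and its activation, and both calls were lost without either unfed library (adjusted p from 0.0619 to 0.186), that of phkg2.L also without either fed library (0.0628 and 0.062).

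FoxO targets and autophagy genes formed a block of lower genes. Of 52 members 24 fell and 2 rose, with a median of -0.84. With any 1 of the 4 libraries of 13 dpf left out the median lay between -0.93 and -0.79. Fewer members fell when either unfed library was left out. The PI3-kinase inhibitor pik3ip1.L had 50.8 and 50.1 CPM in the unfed libraries and 6.65 and 8.17 CPM in the fed libraries, a fall of 2.77 ± 0.23 on the log2 scale (adjusted p = 5.78e-05). Cyclin G2, an atypical cyclin of resting cells, fell by 2.50 ± 0.26 in ccng2.S and by 2.27 ± 0.27 in ccng2.L. Thioredoxin-interacting protein, a brake on glucose uptake, fell by 2.51 ± 0.26 in txnip.L, and sestrin 1, an inhibitor of TOR, by 2.25 ± 0.25 in sesn1.L. In the list of insulin and TOR signalling 14 of 39 fell and 4 rose (35.9% and 10.3%, beside 14.4% and 16.7% of all genes). Leaving out the unfed library of experiment 2 left 8 falling, and 1 rose without either unfed library or the fed library of experiment 1. The insulin receptor insr.L was at 22.1 and 13.4 CPM in unfed and at 6.53 and 2.18 CPM in fed intestine, and fell by 2.09 ± 0.28. TSC1, an inhibitor of TOR, fell by 1.56 ± 0.25 in tsc1.L, and the regulatory subunit pik3r3.L rose by 2.56 ± 0.38. Of 50 lysosomal genes 10 fell and 1 rose, and 4 fell without either unfed library. The 20% lower compares with 14.4% of all genes. Among the lysosomal genes that fell were the endocytic receptor lrp2.L (-2.10 ± 0.27) and progranulin grn.L (-1.87 ± 0.27).

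Genes of DNA replication and division rose as a near-complete set. Of 67 members tested 60 rose and none fell, with a median of 2.29. With any 1 of the 4 libraries of 13 dpf left out the median lay between 1.92 and 2.53. Fewer members rose in these fits, except in that without the fed library of experiment 1. Their summed level was 304 and 402 CPM in the unfed libraries of experiments 1 and 2, against 1197 and 1744 CPM in the fed libraries. The origin recognition subunit orc1.L had 1.81 and 2.15 CPM in unfed and 18.8 and 22.3 CPM in fed intestine, a change of 3.37 ± 0.29 (adjusted p = 6.43e-05). The replicative helicase subunits mcm7.S and mcm4.S changed by 2.59 ± 0.25 and 2.79 ± 0.30, and the S-phase factor e2f1.L by 3.06 ± 0.33. The 7 members not called had positive values from 0.46 for cdt1.S to 2.24 for aurkb.S. The cyclin-dependent kinase inhibitor cdkn2b.L moved against them: it had 2.66 and 1.59 CPM in the unfed libraries and 0 counts in both fed libraries, which puts it at least 11.1-fold lower, counted against 3 counts over the group. An activator of the replication kinase, dbf4b.L, had 1 count in the unfed libraries together and 1.94 and 2.86 CPM in the fed libraries. The count ratio was 43.2 (95% counting interval 7.29 to 1750), and its call was lost without the unfed library of experiment 2 (adjusted p = 0.0529).

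Of 58 genes of the amino acid response and serine synthesis 21 rose and 7 fell. These shares were 36.2% and 12.1%, beside 16.7% and 14.4% of all genes. Without the unfed library of experiment 1, 11 rose and 4 fell, and without that of experiment 2, 14 and 4. Phosphoserine aminotransferase psat1.L had 3.41 and 3.73 CPM in unfed and 199.8 and 79.4 CPM in fed intestine, a change of 5.23 ± 0.46 (adjusted p = 0.00014). Phosphoserine phosphatase rose by 3.65 ± 0.41 in psph.S and by 2.68 ± 0.32 in psph.L, and mitochondrial serine hydroxymethyltransferase by 1.66 ± 0.21 in shmt2.L. Other members of the list fell, among them the stress regulator nupr1.L (-2.08 ± 0.32) and the mitochondrial folate enzyme mthfd2.L, which had 171 and 191 CPM in unfed and 27.5 and 67.4 CPM in fed intestine (-2.02 ± 0.33). The serine dehydratase gene sds.L, whose enzyme breaks serine down, had 1.92 and 6.11 CPM in unfed intestine and 1 count in each fed library, a count ratio of 30.8 in favour of unfed intestine.

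Genes that make, fold and degrade proteins rose in number, but the ribosomal proteins themselves did not. In ribosome biogenesis 58 of 80 members rose and 2 fell, with a median of 0.99. The count depended on single libraries: 33 rose without the fed library of experiment 1, and 21 and 29 without the unfed library of experiment 1 or of experiment 2. Nucleolar factors wdr43.L and utp15.S rose by 1.65 ± 0.22 and 1.70 ± 0.23. Both copies that fell belong to ddx21, an RNA helicase of the nucleolus. The copy ddx21.L had 1092 and 1613 CPM in the unfed libraries and 276 and 461 CPM in the fed libraries (-1.89 ± 0.35, adjusted p = 0.00275). The call of ddx21.S (-0.96 ± 0.32) was lost without any 1 of 6 libraries, with adjusted p from 0.0564 to 0.24, both unfed libraries of 13 dpf among them. Of 128 genes of cytosolic ribosomal proteins tested, none was called, and 0 had an unadjusted p under 0.05 in edgeR or a call in DESeq2. Their median was -0.17. Their summed level fell into no order by feeding: it was 114032 and 138354 CPM in the unfed libraries of experiments 1 and 2 and 73858 and 164109 CPM in the fed libraries. The result turned on both fed libraries, in opposite directions. The median was -0.75 without the fed library of experiment 2 and 0.30 without that of experiment 1. The fed library of experiment 1 also stood apart in pancreas markers and had the lowest sum of stomach markers. That of experiment 2 stood apart in red cell and smooth muscle markers. The part of either library in the result beyond these values was not tested.

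In the endoplasmic reticulum 41 of 73 chaperone and folding genes rose and 3 fell, with 19 rising and 0 falling without the unfed library of experiment 1, and 23 and 1 without that of experiment 2. The chaperone BiP, encoded by hspa5.L, had 98.3 and 169.7 CPM in unfed and 690.4 and 864 CPM in fed intestine, a change of 2.57 ± 0.33, and hspa5.S changed by 2.70 ± 0.36. The secreted chaperone manf rose by 2.79 ± 0.28 in its L copy and by 2.37 ± 0.22 in its S copy. Of 60 proteasome genes 46 rose and none fell, at a median of 0.85, small beside the sterol genes. That count rested on the unfed libraries: 7 and 5 rose without the one of experiment 1 or of experiment 2, and 27 without the fed library of experiment 2, while the median stayed between 0.65 and 1.

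Mitochondrial genes were higher in fed intestine, by an amount that differed between experiments. Of 86 genes of oxidative phosphorylation 52 rose and none fell, with a median of 0.85. The median log2 ratio was 0.43 in experiment 1 and 1.21 in experiment 2. Without the fed library of experiment 1, 83 rose, and without that of experiment 2, 16, at a median of 0.44. The count was 19 without the unfed library of experiment 1 and 3 without that of experiment 2. Cytochrome c, the mobile electron carrier, had 143 and 119 CPM of cycs.L in unfed and 495 and 401 CPM in fed intestine, a change of 1.77 ± 0.31. Cytochrome c1, of complex III, rose by 1.38 ± 0.22 in cyc1.L. Fatty acid oxidation, usually counted with fasting, was higher as well. Here 20 of 35 members rose and 1 fell, with a median of 0.88, and 14 rose without the fed library of experiment 2, 12 without the unfed library of experiment 1 and 6 without that of experiment 2, at a median of 0.58. The carnitine shuttle genes slc25a20.L and cpt2.S rose by 1.55 ± 0.24 and 1.49 ± 0.24.

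**Figure D4:**
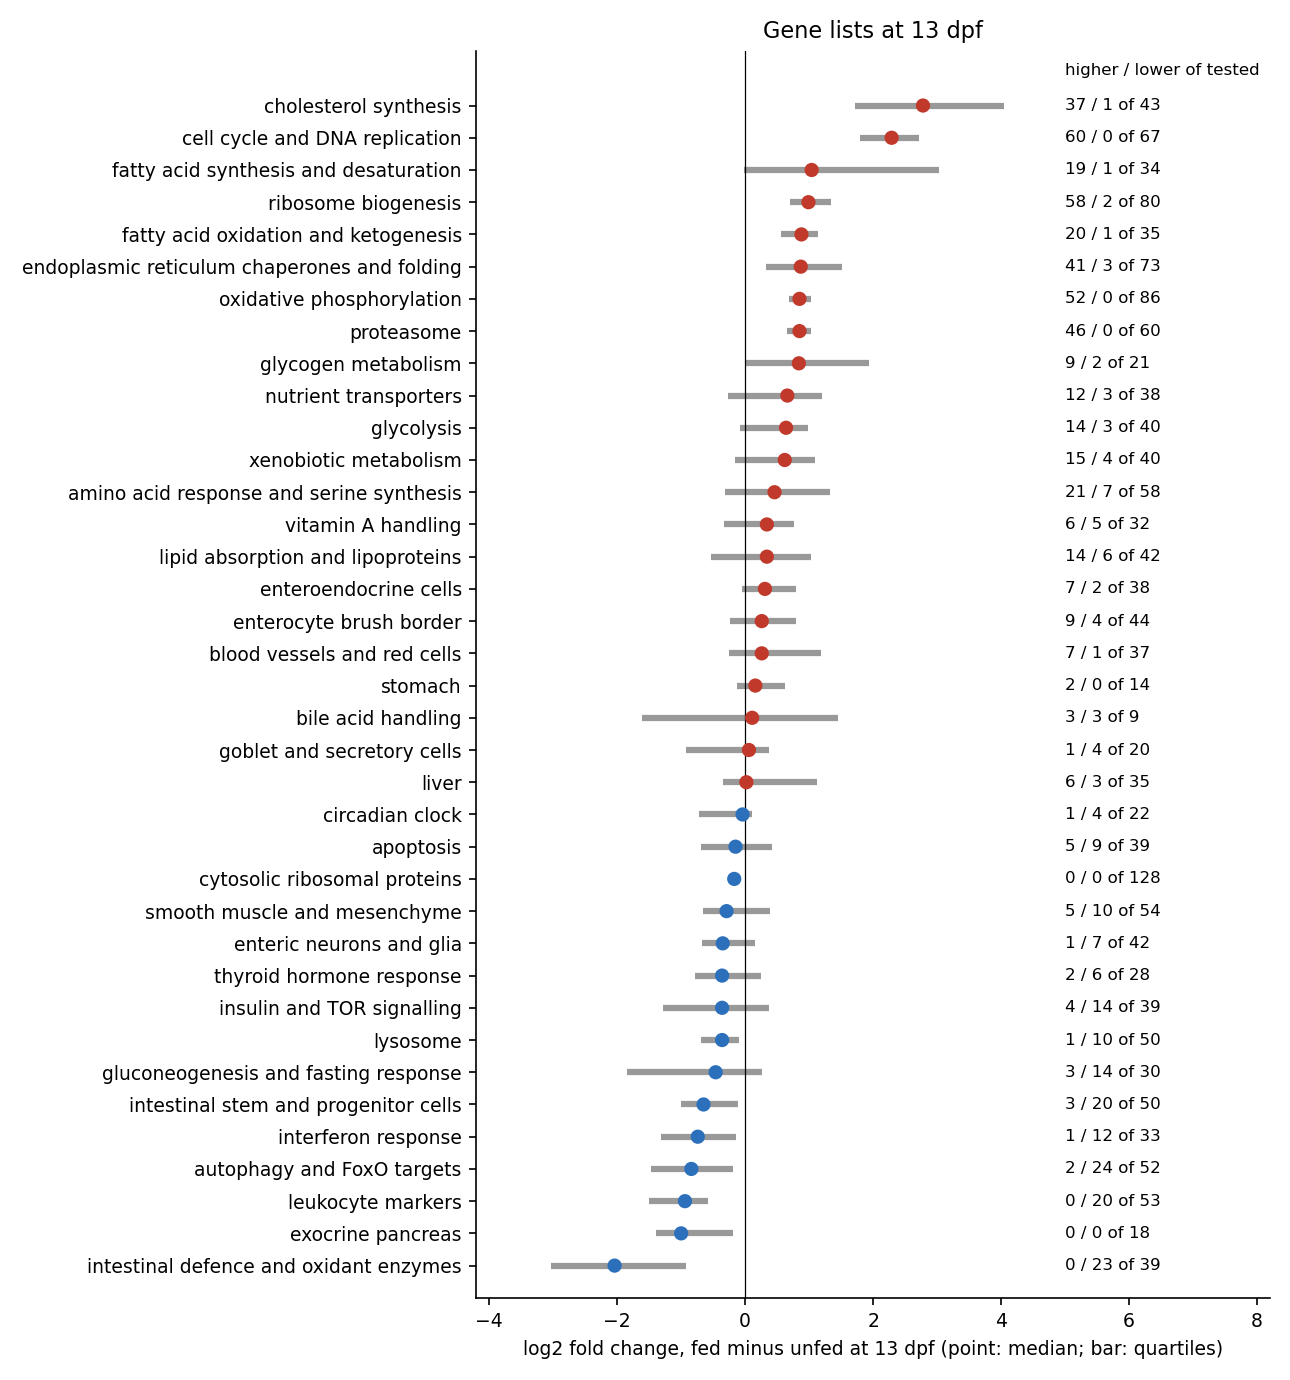
Median log2 fold change (point) and quartiles (bar) of the tested members of each gene list for fed minus unfed intestine at 13 dpf, with the numbers called higher and lower and the number tested at the right. Cholesterol synthesis (37 of 43 higher) and cell cycle (60 of 67 higher) have the highest medians, and intestinal defence (23 of 39 lower) the lowest.

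Among absorptive genes a few transporters changed by a large factor while most of the brush border list did not. Of 38 nutrient transporters 12 rose and 3 fell (31.6% and 7.89%, beside 16.7% and 14.4% of all genes). Without the unfed library of experiment 2, 6 rose and 3 fell, and without that of experiment 1, 8 and 0. The sodium-phosphate cotransporter of the intestinal brush border, slc34a2, gave the highest log2 fold change of the genes that the naming rule picked. The unfed libraries had 1.06 and 2.38 CPM of slc34a2.S and the fed libraries 306 and 170.3 CPM, a change of 7.29 ± 0.70 (adjusted p = 0.000456). Its L copy already had 41.9 and 50.5 CPM in unfed intestine and had 1046 and 313 CPM in fed intestine, a change of 3.81 ± 0.52. The light chains of amino acid exchangers rose by 2.27 ± 0.32 in slc7a9.L and by 2.37 ± 0.36 in slc7a8.S. The zinc transporter slc39a4.S was lower (-1.04 ± 0.22), a call lost without the unfed library of experiment 1 (adjusted p = 0.0778). Members of the brush border list that fell included gata5.L (-1.47 ± 0.34), gata5.S (-1.35 ± 0.27) and anpep.S (-2.01 ± 0.56). Without the unfed library of experiment 1 the value of gata5.L was -0.75, and without that of experiment 2 anpep.S was at -1.08. Of 44 brush border and enterocyte genes 9 rose and 4 fell, 20.5% and 9.09%, near the 16.7% and 14.4% of all genes. The counts were 12 and 2 without the fed library of experiment 2, 4 and 2 without the unfed library of experiment 1, and 1 and 2 without that of experiment 2.

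In the list of lipid absorption and lipoproteins, the L and S copies of some genes moved in opposite directions. Of 42 members 14 rose and 6 fell, and the 14.3% lower lay near the 14.4% of all genes. The counts were 7 rising and 8 falling without the fed library of experiment 2, 7 and 5 without the unfed library of experiment 1, and 3 and 4 without that of experiment 2. The scavenger receptor cd36, which takes up fatty acids, had copies that moved in opposite directions. The copy cd36.S had 100 and 45.6 CPM in unfed and 6.9 and 11.3 CPM in fed intestine, and fell by 3.0 ± 0.40 on the log2 scale. The copy cd36.L was at 125 and 77.4 CPM in unfed and at 188 and 207.5 CPM in fed intestine (0.98 ± 0.29), a call lost without the fed or the unfed library of experiment 2 (adjusted p 0.09 and 0.327, with a value of 0.61 in the latter case). The triglyceride synthase dgat2 split the same way, with dgat2.S falling by 2.32 ± 0.28 and dgat2.L at 0.95 ± 0.26, a call lost without either library of experiment 1 or the unfed library of experiment 2 (adjusted p 0.125, 0.204 and 0.0578), and at 0.52 without the fed library of experiment 1. The GTPase gene sar1b.L, needed to export chylomicrons, rose by 1.61 ± 0.26. Small binding proteins of the enterocyte were abundant. The fed libraries had 1357 and 3160 CPM of fabp1.S and the unfed libraries 182 and 251 CPM, a change of 3.37 ± 0.68 (adjusted p = 0.00647), whose call was lost without the fed library of experiment 2 or the unfed library of experiment 1 (adjusted p 0.0997 and 0.053). For fabp2.S the change was 2.01 ± 0.44 and for fabp6.S, which binds bile acids, 1.46 ± 0.41. Without the unfed library of experiment 2 these gave adjusted p of 0.091 and 0.291. The retinol-binding protein rbp2.L, at 1.87 ± 0.45, lost its call without that library too (adjusted p = 0.165), and its value was 1.13 without the fed library of experiment 2.

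Bile acid signalling in the gut runs through the nuclear receptor FXR to the hormone FGF19 and the repressor SHP. Of 9 genes of bile acid handling 3 rose and 3 fell, at a median of 0.11. The median lay between -0.02 and 0.31 with any 1 of the 4 libraries of 13 dpf left out. Those that rose included fabp6.S (1.46 ± 0.41) and abcc2.L, annotated as an organic anion transporter (1.0 ± 0.28). Without the fed library of experiment 1 the value of abcc2.L was 0.50. Both copies of the SHP gene fell, nr0b2.L from 58.6 and 34.6 CPM to 13.9 and 9.39 CPM (-1.99 ± 0.27, adjusted p = 0.000558) and nr0b2.S by 1.61 ± 0.26 on the log2 scale. For fgf19.L the unfed libraries had 7.77 and 10.2 CPM and the fed libraries 0.363 CPM and 0, which is 3 counts in all. The groups were well separated, with a count ratio of 46.5 in favour of unfed intestine (95% counting interval 15.6 to 228). Its adjusted p of 0.0322 rose to between 0.0732 and 0.168 when any 1 of the 4 libraries was left out.

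Defence genes were lower in fed intestine, and many of them were at or near 0 there. Of the 39 genes listed for gut defence, oxidant enzymes included, 23 fell and none rose, at a median of -2.04, or -1.07 without the fed library of experiment 2. The count was 13 without the fed library of experiment 2 or without the unfed library of experiment 2. The NADPH oxidase organizer noxo1, a partner of the epithelial oxidase NOX1, had 14.7 and 33.4 CPM of its S copy in unfed and 0.726 and 0.272 CPM in fed intestine, a fall of 5.45 ± 0.53 on the log2 scale (adjusted p = 0.000144). For noxo1.L 2 counts remained in the fed libraries, a count ratio of 41.1. Inducible nitric oxide synthase nos2.L had 1.17 and 7.7 CPM in unfed intestine and 0 counts in both fed libraries, at least 22.5-fold lower. The unfed libraries were themselves far apart, and the call of nos2.L was lost in DESeq2 (adjusted p = 0.182), without the replicate block (0.0826) and with ages from the stage field (0.148). The death ligand tnfsf10.L had 72.1 and 65 CPM in unfed and 7.14 and 5.45 CPM in fed intestine, and fell by 3.44 ± 0.25 (adjusted p = 4.16e-05). The interferon regulatory factor irf1 fell by 2.48 ± 0.26 in its L copy and by 2.25 ± 0.23 in its S copy. Of 33 interferon response genes 12 fell and 1 rose, among the falling ones irf9.L (-1.83 ± 0.23) and the RNA sensor regulator dhx58.L (-2.05 ± 0.30). That count was 7 and 6 without the unfed library of experiment 1 or of experiment 2, and 8 without the fed library of experiment 2.

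Several inflammatory genes were lower in fed intestine but differed more than 10-fold between the unfed libraries. The metalloreductase steap4.2.L had 0.319 and 24.7 CPM in the unfed libraries of experiments 1 and 2 and 0 counts in both fed libraries, at least 63.1-fold lower, and its adjusted p was 0.163 without the fed library of experiment 2 and 0.212 without the replicate block. The chemokine cxcl8.S had 5.11 and 54.1 CPM in unfed and 0.847 and 0.408 CPM in fed intestine (adjusted p = 0.0121, and 0.0843 or 0.121 without either unfed library). The metalloproteinase mmp8.L had 3.09 and 114.7 CPM against 0.363 and 1.63 CPM (adjusted p = 0.0474, and 0.0576 to 0.22 without any 1 of 5 libraries). These unfed values show no overlap with the fed ones, but 1 unfed library carries most of each sum. Arginase arg1.L had 4.36 and 62.5 CPM against 0.484 and 1.36 CPM, and the hepcidin gene hamp2.L, a regulator of iron export, 0.745 and 11.7 CPM against 1 count in each fed library. Without the fed library of experiment 2 their adjusted p were 0.0717 and 0.245, and that of hamp2.L was 0.157 without the unfed library of experiment 2. The growth factor csf3.L, with 0.213 and 4.3 CPM in unfed intestine and 0 counts in fed intestine, had an adjusted p of 0.0379 and lost its call without any 1 of 6 libraries, with values up to 0.392. Less far apart in unfed intestine was the complement gene c3.L, made by liver and epithelia, which had 432 and 1489 CPM in unfed and 55.4 and 160.4 CPM in fed intestine, a fall of 3.11 ± 0.42 (adjusted p = 0.00052).

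Leukocyte markers moved with these genes. The 8 defining leukocyte markers, of which none was at 0, summed to 138 and 288 CPM in the unfed libraries of experiments 1 and 2 and to 99.7 and 84.3 CPM in the fed libraries. Of these 8, 6 were lower in fed intestine. In the longer list 20 of 53 fell and none rose, at a median of -0.94, with 10 falling without the fed library of experiment 2 and 4 without the unfed library of experiment 2. The myeloid adaptor tyrobp.L had 13.3 and 26.2 CPM in unfed and 2.66 and 2.72 CPM in fed intestine (-2.80 ± 0.40), and the phagocyte oxidase subunit cyba.S fell by 2.37 ± 0.32. The part of leukocytes in the lower defence genes was not tested.

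Markers of other cell types gave a mixed picture. Of 50 stem and progenitor markers 20 fell and 3 rose (40% and 6%, beside 14.4% and 16.7% of all genes), at a median of -0.65. The falling count was 7 in DESeq2, 11 without the fed library of experiment 1, 12 without that of experiment 2, and 6 and 3 without the unfed library of experiment 1 or of experiment 2. The progenitor factor sox9.L had 4.68 and 8.38 CPM in unfed and 1.45 and 2.04 CPM in fed intestine (-1.87 ± 0.36). Members that rose were both copies of cdca7, which is also a cell cycle gene (3.28 ± 0.24 for cdca7.L and 2.94 ± 0.33 for cdca7.S), and myc.L (0.90 ± 0.23), whose call was lost without either unfed library (adjusted p 0.136 and 0.0688). Of 38 enteroendocrine genes 7 rose and 2 fell, and the 18.4% higher lay near the 16.7% of all genes. Leaving out the fed library of experiment 2 left 4 rising, and without the unfed library of experiment 2, 1 rose and 1 fell. Proglucagon gcg.L was at 21.1 and 25.9 CPM in unfed and at 58.6 and 58.7 CPM in fed intestine (1.32 ± 0.23). The 2 enteroendocrine genes that fell were chgb.S, annotated as secretogranin-1-like, and isl1.S. The gene chgb.S had 11.2 and 12.7 CPM in unfed and 4.96 and 4.36 CPM in fed intestine (-1.34 ± 0.27). For isl1.S the change was -0.92 ± 0.30, with values from -1.23 to -0.63 over the libraries left out. Smooth muscle and mesenchyme genes showed 5 rises and 10 falls among 54, and the 18.5% lower compares with 14.4% of all genes. Without the fed library of experiment 1 the counts were 11 and 9, without that of experiment 2 they were 2 and 20, and the median then lay at 0.09 and at -0.66. Without the unfed library of experiment 1 they were 2 and 6, and without that of experiment 2 they were 2 and 7. Fibronectin fn1.S fell by 2.22 ± 0.25, and calponin 2, an actin-binding protein, rose by 1.61 ± 0.24 in cnn2.L. No gene of 18 for the exocrine pancreas was called in edgeR's test, with 2 lower at an unadjusted p under 0.05 and 1 called lower by DESeq2. The list had a median log2 ratio of -2.90 in experiment 1 and 0.06 in experiment 2. Without the fed library of experiment 2, 10 were called lower, and without that of experiment 1, 2 were higher and 1 lower. Xenobiotic metabolism gave 15 rises and 4 falls among 40 (37.5% and 10%, beside 16.7% and 14.4% of all genes). Its median of 0.62 was 0.66 without the unfed library of experiment 1 and 0.36 without that of experiment 2. In both of these fits fewer of its members rose and fewer fell. Vitamin A handling gave 6 rises and 5 falls among 32, shares near the 16.7% and 14.4% of all genes, and none of either without the unfed library of experiment 2. Enteric neurons and glia gave 1 rise and 7 falls among 42, where the 16.7% lower lay near the 14.4% of all genes, with 1 fall left without either unfed library. Liver gave 6 rises and 3 falls among 35 (17.1% and 8.57%, beside 16.7% and 14.4% of all genes). Goblet and secretory cells gave 1 and 4 among 20 (20% lower, beside 14.4% of all genes). Stomach gave 2 and 0 among 14 (14.3% higher, beside 16.7% of all genes). The medians of these 3 lists were -0.01, 0.19 and 0.65 without the fed library of experiment 1, in that order. They were 0.44, -0.28 and -0.4 without that of experiment 2.

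Of 37 blood and vessel genes 7 rose and 1 fell, a share of 18.9% higher beside 16.7% of all genes, and 12 rose without the fed library of experiment 1. Transferrin receptor tfrc.S had 5 and 4.08 CPM in unfed and 48 and 18.4 CPM in fed intestine, a change of 2.84 ± 0.47, or 1.87 without the fed library of experiment 1. The mitochondrial iron importer slc25a37.S rose by 2.03 ± 0.33, and ferrochelatase fech.L, the last enzyme of haem synthesis, by 1.78 ± 0.33. The red cell markers were high in the fed library of experiment 2 only, while these 3 genes were higher in the fed library of experiment 1 than in that of experiment 2. Thyroid hormone response genes, the set that drives the later metamorphosis of the gut, gave 2 rises and 6 falls among 28. Their median of -0.36 lay between -0.52 and -0.09 with any 1 of the 4 libraries of 13 dpf left out. Fewer of them fell in each of these fits. The 21.4% lower compares with 14.4% of all genes. The direct target klf9.L had 3.19 and 5.09 CPM in unfed and 0.605 and 0.272 CPM in fed intestine (-3.19 ± 0.57). Both rises were the 2 copies of the arginine methyltransferase prmt1, by 1.79 ± 0.24 and 2.04 ± 0.30 for prmt1.L and prmt1.S.

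The L and S copies of a gene could be compared in 5375 pairs. Both rose in 592, both fell in 393, 1 copy was called in 1504, neither in 2866, and in 20 pairs the copies were called in opposite directions. The log2 fold changes of the copies correlated at 0.713 across pairs. Among the 20 opposite pairs were cd36, dgat2, ucp2 and insig1, named here after their values were seen. The uncoupling protein gene ucp2.S was at -1.19 ± 0.29 and ucp2.L at 0.95 ± 0.27, and each lost its call without 2 of the 4 libraries, with adjusted p from 0.0695 to 0.234. Near-identical copies can exchange reads in counting.

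The difference at 13 dpf could be set beside that of the younger tadpoles. Of the genes called at 13 dpf, 2267 higher and 1604 lower were also called in the same direction at 10 dpf, and 2 were called in opposite directions. The median log2 fold change of the higher genes was 1.15 at 13 dpf and 0.91 at 10 dpf, and that of the lower genes was -1.26 and -0.91, where the choice of genes at 13 dpf favours the larger value at that age. A test of the change in the difference between 10 and 13 dpf called 0 genes (0%) in edgeR's quasi-likelihood test, with 1231 at an unadjusted p under 0.05 and a smallest adjusted p of 0.213, and 21 genes in DESeq2. Leaving out 1 library gave up to 46 calls, the 46 without the unfed library of experiment 2 at 10 dpf. The cell cycle list had a median of 2.29 at 13 dpf and 1.11 at 10 dpf. In single pairs of libraries its median log2 ratio was 0.59 and 1.74 at 10 dpf in experiments 1 and 2, 2.15 and 2.24 at 13 dpf, and 1.41 at 16 dpf. Cholesterol synthesis gave medians of 2.78 and 2.56 at 13 and 10 dpf. For igfbp1.S the log2 fold change was -3.69 at 13 dpf and -1.55 at 10 dpf (unadjusted p of the change 0.00027, adjusted p not past 0.05). At 16 dpf, with 1 library pair from experiment 2 and no test, 95.3% of the higher genes had a positive ratio, and 95.4% of the lower genes a negative one, against 48.1% positive among all genes tested.

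**Figure D5:**
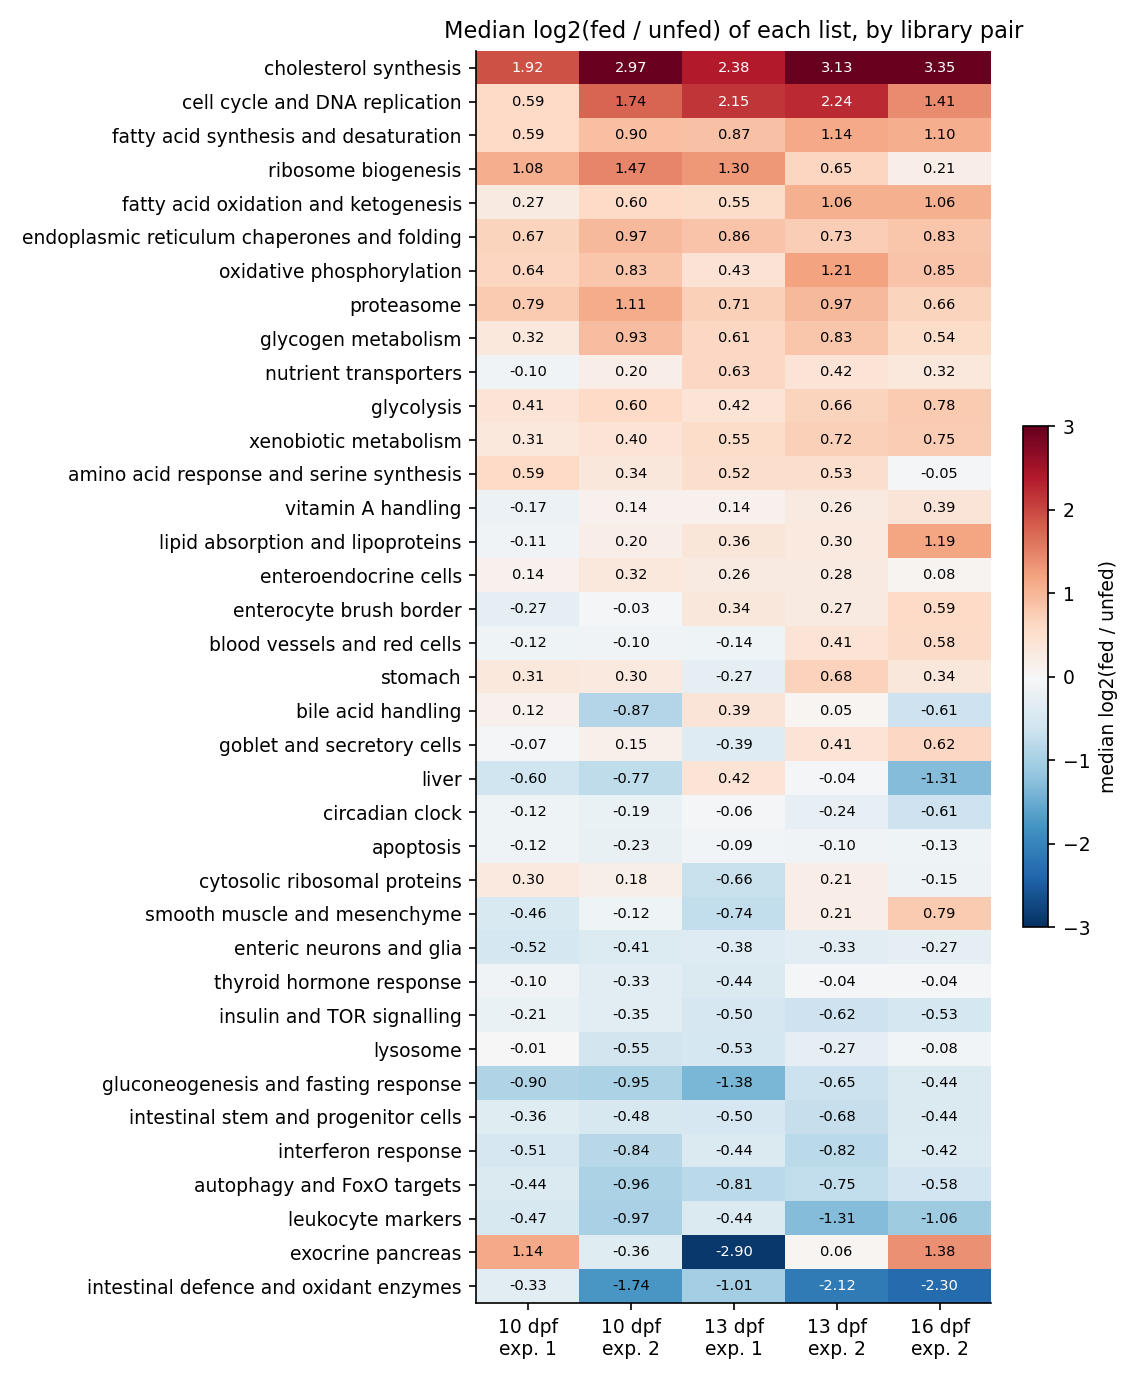
Median log2 ratio of fed to unfed CPM of each gene list in the 5 library pairs, by age and experiment, with red for higher and blue for lower in fed intestine. Cholesterol synthesis is red in all pairs (1.92 to 3.35) and intestinal defence blue in all (-2.30 to -0.33), whereas exocrine pancreas, stomach, liver, goblet cells, blood, smooth muscle and cytosolic ribosomal proteins change sign between the 2 experiments at 13 dpf.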

How the data were processed

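RNA was sequenced from pooled intestines in 10 libraries of 6 groups. Reads were aligned with HISAT2 and counted with featureCounts, per the submitters' processing notes, while versions, genome build and strand setting were not given in the sources used here. Raw counts per transcript were used as deposited, and so was transcript length in bases, another deposited column. The authors' RPKM values were not used. Nameless rows, left out, made up 0.0738% of counts, and named rows without a RefSeq transcript identifier, also left out, 0.136%. Transcripts were joined to genes through RefSeq names (Xenopus laevis v10.1, used for names only), and each of 33761 genes took its largest transcript count, since transcript variants tend to repeat a count (in 82.85% of 9845 multi-variant genes the top pair lay within 10%). RefSeq symbols covered 93.11% of gene counts.

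The test was edgeR 4.0.16 (R 4.3.3, limma 3.58.1) with TMM scaling, filterByExpr and the quasi-likelihood F test in 1 fit of all 10 libraries, with the 6 groups and the experiment as block. This left 23821 genes and 3 residual degrees of freedom. Adjusted p are Benjamini-Hochberg over all genes tested, with 0.05 as threshold. Errors of log2 fold changes are approximate standard errors for 2 fed against 2 unfed libraries. Each is the absolute log2 fold change divided by the square root of the F statistic of its test. The spread between libraries was estimated in the fit of all 10 libraries and drawn towards that of other genes. Such p-values measure the spread between pooled libraries only, other ages included. The experiment pairs the libraries: deviations from the group means correlated at 0.336 to 0.524 in all 6 group pairs that share experiments 1 and 2. Ratios within an experiment used a prior count of 2. Intervals and bounds cover counting error only, at 95% confidence. The procedure was tested on simulated counts. These had less spread than the data, fewer changed genes and no difference between experiments, so that test does not cover those features of the data. DESeq2 1.42.0, other scalings and the leave-one-out fits are described in the closing section.

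The members and the 37 lists were chosen with earlier results of these data known. The named genes were, among called genes with a mean of at least 1 CPM and the same sign in both experiments, the 15 highest and 15 lowest log2 fold changes with a symbol, the 4 smallest p per list, up to 3 members called against the direction of their list, the 5 with the highest mean CPM, and the other copy of each. The list members outside this rule (aurkb.S, cdt1.S) were named after their values were seen.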

Additional observations from a re-analysis of the deposited data

Results flagged for a closer look

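At 13 dpf the median log2 ratio of 7 gene lists lay on opposite sides of 0 in the experiments, with 1 library pair in each, and these differences were not tested. For cytosolic ribosomal proteins it was -0.66 in experiment 1 and 0.21 in experiment 2. Exocrine pancreas had -2.90 and 0.06, smooth muscle and mesenchyme -0.74 and 0.21, and stomach -0.27 and 0.68. Goblet and secretory cells had -0.39 and 0.41, blood vessels and red cells -0.14 and 0.41, and liver 0.42 and -0.04. The fed library of experiment 1 also held 56.5 CPM of exocrine pancreas markers against 629 to 1148 CPM in the other 3 libraries of 13 dpf.

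In 4 named genes called at 13 dpf the log2 ratio had the opposite sign at 10 dpf in both experiments. The glycolytic regulator pfkfb3.L was at -0.86 at 13 dpf, the interferon-induced protease usp18.L at 2.0, clca3p.L, annotated as an epithelial chloride channel protein-like gene, at -0.67, and cd36.L at 0.98. At 10 dpf the ratios of usp18.L were close to 0, at -0.07 and -0.01 in experiments 1 and 2. Those of pfkfb3.L were 0.10 and 0.17, and those of clca3p.L 0.11 and 0.63. None of the 4 passed the test of the change between the ages (adjusted p not under 0.05), and each lost its call at 13 dpf without some library. Without the unfed library of experiment 2 the adjusted p at 13 dpf were 0.257, 0.108, 0.0821 and 0.327 in that order. Without the fed library of experiment 1 the value of pfkfb3.L was -1.46 and that of usp18.L 0.28, and without that of experiment 2 pfkfb3.L was at -0.40.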

How the results depend on the processing

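Against 3969 higher and 3424 lower genes, DESeq2 called 2761 and 2066, of which 2688 and 2006 were the same genes. Ages from the stage field gave 1692 and 1633 (1606 and 1463 shared). Without the replicate block the counts were 2139 and 1552 (2136 and 1551 shared). Leaving out 1 library gave 1411 to 3957 higher and 1304 to 3437 lower. Size factors in edgeR, no filter on low counts, sums over transcripts, a length trend removed, and the 4 libraries of 13 dpf alone stayed within 1.5 times the main counts. The change between 10 and 13 dpf, with 0 genes called, gave 21 in DESeq2, 2 without a filter and 0 to 46 with 1 library left out. In the fits that leave a group with 1 library, among them the fit on ages from the stage field, that library is assumed to vary like the others. Of 247 named called genes, 114 kept direction and call under all 18 settings. The sign of usp18.L turned with ages from the stage field (-0.261). That of steap4.2.S turned without the unfed library of experiment 2 (1.54e-11, on a range from -6.4 over the libraries left out), where no library of the comparison held a count of it. Removing the length trend moved the ribosomal protein median from -0.17 to -0.46, and that of smooth muscle from -0.29 to 0.02. Depth limits genes near 0 counts to the bounds given. The planned search of promoter motifs was not run, as no promoter sequence was used here.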

Other observations

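Among the called genes, 624 of the higher and 1102 of the lower had no symbol beyond a locus number or matched no RefSeq gene, and they are counted here without names. The actin gene MGC75582.L, annotated as an alpha cardiac muscle 2-like actin, had 0.213 and 0.226 CPM in the unfed libraries and 4.6 and 16.2 CPM in the fed libraries, a log2 fold change of 5.39 ± 0.68 (adjusted p = 0.000449). The zinc finger gene unkl fell in both copies: unkl.L had 16.5 and 13.4 CPM in unfed and 2.3 and 0.953 CPM in fed intestine (-3.21 ± 0.31), and unkl.S had 3 counts left in the fed libraries, a count ratio of 27.7 in favour of unfed intestine. Of 22 clock genes 4 fell and 1 rose. Their median was -0.04, or -0.31 without the fed library of experiment 1 and -0.06 without that of experiment 2. The 18.2% lower compares with 14.4% of all genes. The repressor genes per3.S and cry2.L were lower in fed intestine in both experiments, per3.S at 42 and 44.1 CPM in unfed against 14.6 and 11.7 CPM in fed libraries (-1.71 ± 0.22). The labels used here give no hour of collection. Among apoptosis genes 9 of 39 fell (23.1%, beside 14.4% of all genes) and 5 rose. The inhibitor birc2.S fell by 1.71 ± 0.22 on the log2 scale. The counts were 5 and 1 without the fed library of experiment 2, 4 and 1 without the unfed library of experiment 1, and 3 and 1 without that of experiment 2.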
